A study of Homo sapiens with 12 samples.

Results

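The genes described here are those of FOXM1, MYBL2 and the MuvB complex: FOXM1, MYBL2, LIN9, LIN37, LIN52, LIN54, RBBP4 and the kinase gene DYRK1A. They were taken by symbol from a table of read counts, 8 of 62069 genes, and 8 of 8 passed the filter on low counts that left 15284 genes for testing. RNA-seq was performed in IMR90 ER:RAS cells, which are human lung fibroblasts. In these cells 4-hydroxytamoxifen (4OHT) activates a RAS protein fused to the estrogen receptor. This induces oncogene-induced senescence (OIS), a lasting growth arrest. There were 4 groups of 3 libraries at day 5 and passage p13: non-induced cells, induced cells given 100 nM 4OHT, and induced cells that also carried the shRNA shXPO7_3 or shXPO7_5 against XPO7, a nuclear transport receptor. The ER:RAS fusion was in every group. The study describes nontargeting control cells as vector, while the labels of the non-induced and induced libraries name no vector. No source states that replicates were grown as separate cultures, so each p-value reflects library-to-library spread that may be technical.

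MuvB is a core of LIN9, LIN37, LIN52, LIN54 and RBBP4 that sits at the promoters of cell cycle genes, where LIN54 contacts DNA. In quiescent cells it joins the pocket proteins p130 or p107 (RBL2, RBL1) and E2F4 or E2F5 with a DP partner to form the repressive DREAM complex, and DYRK1A promotes this assembly by phosphorylating LIN52. In cycling cells the same core exchanges these partners for the transcription factor B-MYB (MYBL2) and later recruits FOXM1, and then activates genes of G2 phase and mitosis. MYBL2 and FOXM1 are themselves targets of the pathway, with MYBL2 a classical E2F and DREAM target.

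Library totals ran from 28534141 to 60397769 counts. Levels are given as CPM, read counts scaled to the size of the library, after TMM factors, and a gene was called when its adjusted p was under 0.05 (edgeR quasi-likelihood test, Benjamini-Hochberg over 15284 genes). XPO7 stood at 137 ± 8.81 CPM (SD, n = 3) in induced cells, 27.7 ± 1.14 with shXPO7_3 and 52.2 ± 1.62 with shXPO7_5. All 10 fibroblast markers were above 1 CPM on average in each group, and none of 8 immune markers was. Of 8 epithelial markers 2 exceeded 1 CPM, and their summed level was 37.3 to 43.4 CPM in non-induced and 3.36 to 4.54 in induced libraries, led by KRT19. Of 6 endothelial markers 2 exceeded 1 CPM, with sums of 14.7 to 15.1 and 9.46 to 10.2 CPM in the same groups. The part of these marker genes in the results was not tested.

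DNA motifs tied to the pathway were searched in RefSeq promoter windows (GRCh38.p14), which run from 250 bases before to 50 after a gene's start. The motifs were the cell cycle homology region (CHR), read as TTTGAA or TTCGAA, and an E2F core, read as GGCGGGA or GGCGCGA, on both strands. The letters were picked with some of these sequences in view. Windows were found for MYBL2, LIN9, LIN37, LIN52, LIN54, RBBP4 and DYRK1A, 17 in all. An E2F core was in 10 of the 17 and a CHR in 7, against 19.1% and 16.4% of all 35116 windows. The stretches of 30 bases below, 5′ to 3′ on the gene's strand with the match in capitals, show where MYBL2 and 4 genes of the core carry such letters.
MYBL2, chr20:43667064-43667093, plus strand, E2F core beginning 39 bases before the start: ccgacgcgcttGGCGGGAgatagaaaagtg
LIN52, chr14:74084922-74084951, plus strand, E2F core read on the other strand: gaacctcgtttTCCCGCCgacggttggcca
RBBP4, chr1:32651156-32651185, plus strand, E2F core: tggctgatgttGGCGCGAaggtgcgcgagt
LIN54, chr4:83010906-83010935, minus strand, CHR: ggcccttgtgcgTTTGAAggttggcggggc
LIN9, chr1:226309207-226309236, minus strand, CHR: gcgagctccgcaTTCGAAcctccctcgcaa
The MYBL2 window held an E2F core and no CHR, and both LIN54 windows held both kinds of motif. A match is a run of letters, not a shown binding site. Each of the 7 members with a window had an E2F core in at least 1 of its windows. A link between these letters and the fold changes was not tested.

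OIS lowered both transcription factors far more than the core they bind. FOXM1 (ENSG00000111206, chromosome 12, 2857681 to 2877155, GRCh38, minus strand), the forkhead factor of G2/M genes, stood at 92.4, 81.9 and 76.8 CPM in the non-induced libraries T, A and C. It stood at 11.3, 13.2 and 11.98 CPM in the induced libraries T, A and B, so every induced library was below every non-induced one. The induced mean was 14.5% of the non-induced mean, a log2 fold change of -2.78 (SE 0.10, adjusted p = 6.06e-10). In bulk RNA, fewer cells that express a gene and less of its RNA per cell cannot be told apart. FOXM1 shares 781 exon bases with ITFG2 on the opposite strand, which had 335 to 709 counts a library.

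MYBL2 (ENSG00000101057, chromosome 20, 43667019 to 43716496, plus strand) encodes B-MYB, the partner that turns MuvB into an activator. It stood at 37.9, 33.6 and 30.7 CPM in non-induced and 3.66, 3.33 and 4.08 CPM in induced libraries. The groups did not overlap, and 10.8% of the non-induced level was left, a log2 fold change of -3.20 (SE 0.14, adjusted p = 2.30e-09). Both falls were called under each of 21 alternative settings.

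The scaffold of the complex was different in scale. RBBP4 (ENSG00000162521), a histone-binding protein that also serves other chromatin complexes, stood at 137, 132 and 133 CPM in non-induced libraries. In induced libraries it stood at 107, 110 and 108 CPM, a log2 fold change of -0.31 (SE 0.06, adjusted p = 0.00114). The RBBP4 groups did not overlap, and 80.8% of its level was left. RBBP4 shares 1706 exon bases with SYNC on the opposite strand, which had between 225 and 2218 counts a library.

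LIN52 (ENSG00000205659), the subunit whose phosphorylation directs MuvB toward the pocket proteins, stood at 13.6, 13.7 and 15.3 CPM in non-induced and 11.4, 12.02 and 11.6 CPM in induced libraries. Its fall was small, with a log2 fold change of -0.28 (SE 0.09, adjusted p = 0.0171). The LIN52 call was lost without non-induced C (-0.22, adjusted p = 0.0749), without induced T (-0.26, adjusted p = 0.0627), with no filter beyond 1 count (adjusted p = 0.101) and with the replicate letter as a block (-0.20, adjusted p = 0.122), all by edgeR's test.

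The other core subunits and the kinase were not called, though for LIN9, LIN54 and LIN37 this depended on the setting. LIN54 (ENSG00000189308), the DNA-contacting subunit, stood at 19.6, 24.1 and 27.5 CPM in non-induced and 17.9, 19.7 and 17.1 CPM in induced libraries, and the groups overlapped through the non-induced library T (log2 fold change -0.39, SE 0.16, adjusted p = 0.0659). LIN9 (ENSG00000183814), a scaffold subunit, stood at 5.01, 7.12 and 9.12 CPM and then at 3.99, 4.75 and 3.65 CPM. The LIN9 groups did not overlap, but its wide spread gave an interval from -1.53 to -0.04 (log2 fold change -0.79, adjusted p = 0.0723). LIN37 (ENSG00000267796), a subunit needed for repression by DREAM, stood at 1.51, 1.26 and 1.304 CPM and then at 1.78, 1.77 and 1.72 CPM (log2 fold change 0.37, adjusted p = 0.0871). LIN37 was the 1 member with a higher mean in induced cells. It shares 752 exon bases with AD000671.1 on the same strand, which had 0 counts in every library. LIN37 also shares 1180 exon bases with AD000671.3 on the opposite strand, which had 0 to 6 counts a library. Whether reads on shared bases were lost to LIN37 was not tested. DYRK1A (ENSG00000157540) stood at 43.5, 47.0 and 49.7 CPM and then at 47.5, 43.0 and 42.9 CPM, with overlapping groups (log2 fold change -0.07, interval -0.26 to 0.11, adjusted p = 0.491).

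Calls on LIN9, LIN54 and LIN37 in OIS moved with the setting and with 1 library. Of 21 alternatives, 7 called LIN9, 9 called LIN54 and 3 called LIN37. Both LIN9 and LIN54 were called lower with upper-quartile factors (adjusted p = 0.0328 and 0.0137), with no filter beyond 1 count (0.00953 and 0.0399) and in a fit of only the groups compared (0.0127 and 0.0291), and LIN54 also when 1 CPM was required in 6 or more libraries (adjusted p = 0.0492). Without non-induced T, both LIN9 (-0.98, adjusted p = 0.0361) and LIN54 (-0.50, adjusted p = 0.0242) were called lower by edgeR. Without shXPO7_5 induced A, which adds only to the estimate of spread here, LIN9 (adjusted p = 0.0195) and LIN54 (adjusted p = 0.0219) were called as well. Without shXPO7_5 induced B, LIN54 (adjusted p = 0.0459) and LIN37 (adjusted p = 0.0477) were called. An offset for GC content and length (the GC offset) called LIN9 (-0.83), LIN54 (-0.42) and LIN37 (0.47), also together with the replicate block. The non-induced libraries differed in GC trend. Over 14864 genes, the rank correlation of GC content with the log2 ratio to the own group mean was 0.56 in T, -0.12 in A and -0.62 in C. Whether this trend has a part in the spread of LIN9 and LIN54 was not tested.

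**Figure D1:**
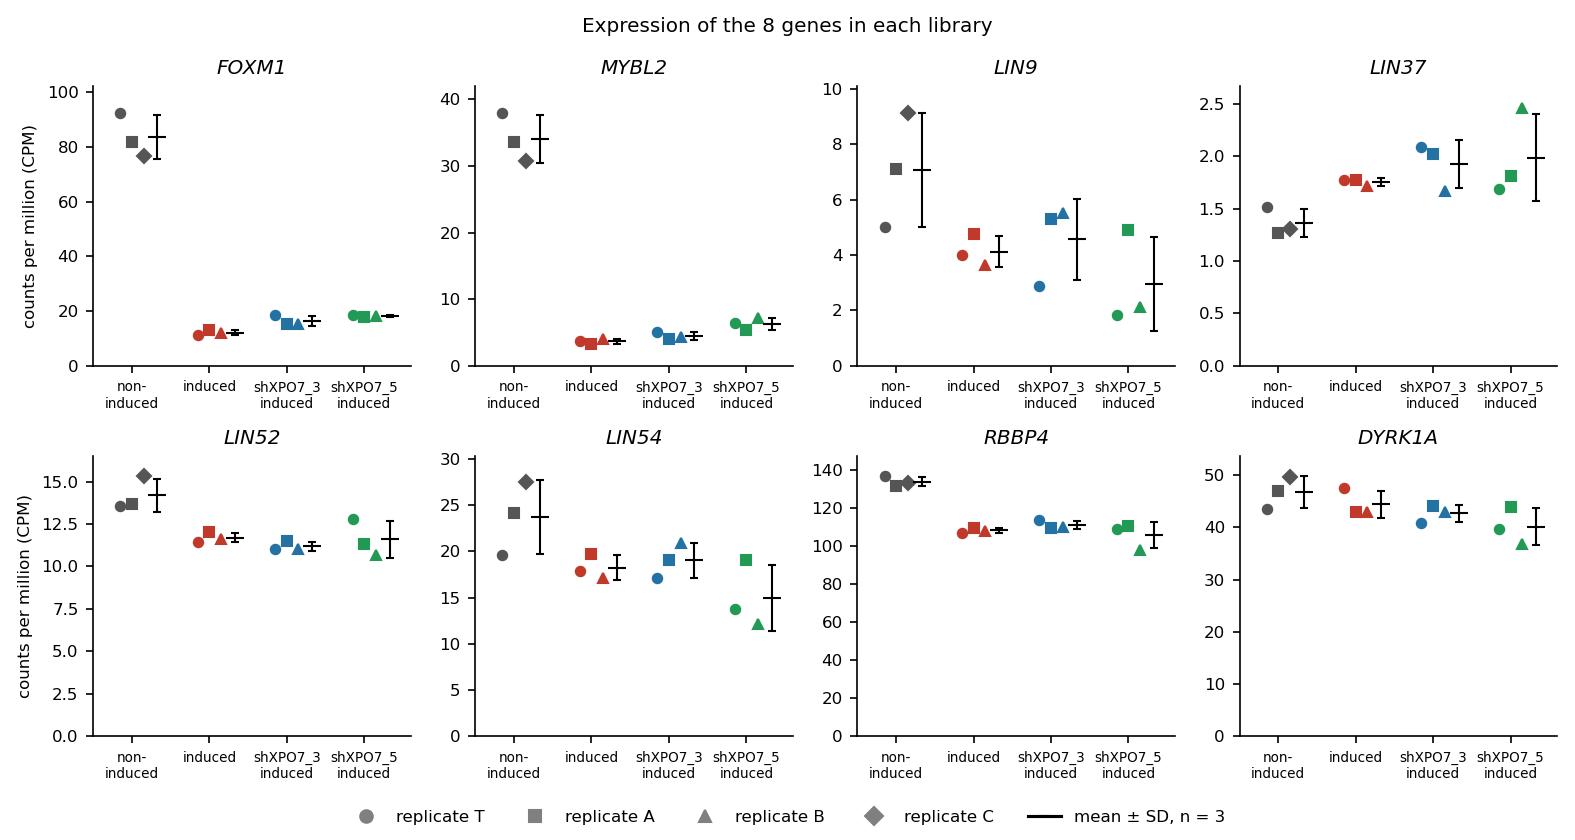
Level of the 8 genes in each of the 12 libraries, in CPM on a linear axis from 0, with the group along the horizontal axis. Symbols give the replicate letter, and the black bar gives the mean ± SD (n = 3). FOXM1 falls from between 76.8 and 92.4 CPM to between 11.3 and 13.2 CPM and MYBL2 shows the same step, while DYRK1A and LIN54 overlap between groups.

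By the test, 4 of the 8 genes were lower in OIS and none was higher, against 26.1% of all genes called lower and 50.9% called in either direction. The libraries of 5 members were lower with no overlap between groups, against 31.4% of all genes. The median log2 fold change of the 8 was -0.35, against -0.01 over all genes tested, and the members ranged from -3.20 to 0.37. The range came from MYBL2 and FOXM1, since the 6 other genes lay between -0.79 and 0.37. The order of levels per kilobase depended on the length used. Over the mean transcript length, non-induced levels were 109 CPM per kilobase for RBBP4, 42.1 for FOXM1, 15.4 for DYRK1A, 12.7 for MYBL2, 10.9 for LIN52, 7.67 for LIN54, 2.89 for LIN9 and 1.56 for LIN37. Over the union of exons, FOXM1 (17.1) was above RBBP4 (14.2) and MYBL2 (12.3). In induced cells, over the mean transcript length, FOXM1 stood at 6.12 CPM per kilobase, beside 5.88 for LIN54 and 8.95 for LIN52. MYBL2 then stood at 1.38 CPM per kilobase, beside 1.68 for LIN9 and 2.01 for LIN37. These orders are descriptions, and neighbours within a group were not tested.

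Among the DREAM partners, those called lower were RBL1, TFDP1 and TFDP2. RBL1 encodes p107 and is itself a cell cycle gene. It stood at 16.2, 22.8 and 26.1 CPM in non-induced and 5.33, 5.57 and 5.04 CPM in induced libraries (log2 fold change -2.04, SE 0.21, adjusted p = 6.11e-06). RBL2, which encodes the p130 of quiescent DREAM, stood at 45.7, 53.9 and 55.5 CPM and then at 46.8, 47.0 and 42.5 CPM, with overlapping groups (log2 fold change -0.19, adjusted p = 0.266). The DP genes were both lower, TFDP1 by a log2 fold change of -0.47 (adjusted p = 5.38e-05) and TFDP2 by one of -0.73 (adjusted p = 1.82e-06, edgeR). The repressor E2Fs were not called: E2F4 changed by 0.14 (adjusted p = 0.201) and E2F5 by -0.28 (adjusted p = 0.0519) on the log2 scale. In all, 3 of 6 partner genes were called lower and none higher, with a median of -0.37. Over all genes, 26.1% were called lower and 50.9% in either direction, so the count of called partners was near the overall rate. RBL2 shares 610 exon bases with AKTIP, and E2F5 shares 969 with C8orf59, both on the opposite strand.

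Among genes related to the members, MYB family genes were lower and DYRK3 was higher. MYBL1, the A-MYB gene, stood at 34.7, 51.5 and 65.4 CPM in non-induced and 10.6, 10.7 and 8.17 CPM in induced libraries (log2 fold change -2.37, SE 0.29, adjusted p = 2.28e-05). MYB, the founding gene of the family, was near the floor, at 1.02 to 1.19 CPM and then 0.08 to 0.24 CPM (log2 fold change -2.73, adjusted p = 2.34e-05). RBBP7, a close relative of RBBP4, fell with it, by a log2 fold change of -0.34 (SE 0.06, adjusted p = 0.000231, edgeR). DYRK3, another kinase of the DYRK family, rose from 20.1, 21.2 and 18.1 CPM to 41.7, 41.2 and 41.9 CPM (log2 fold change 1.07, SE 0.07, adjusted p = 1.31e-07). DYRK1B (0.04, adjusted p = 0.759) and DYRK2 (-0.18, adjusted p = 0.0689) were not called by edgeR. Of the 6 relatives, 3 were called lower and 1 higher, where 26.1% of all genes were called lower and 24.8% higher.

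**Figure D2:**
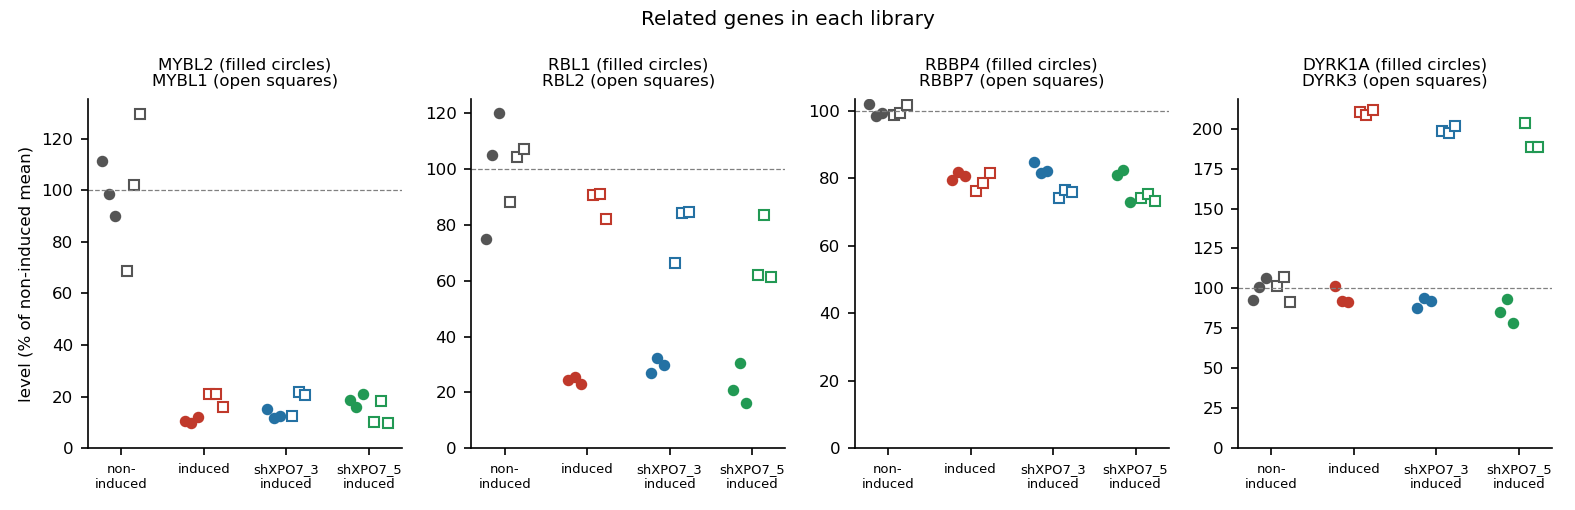
Level of 4 pairs of related genes in each library as a percentage of the gene's mean in non-induced cells, on linear axes from 0; filled circles are the gene named first and open squares the second. RBL1 drops further than RBL2 in the induced libraries, and DYRK3 rises while DYRK1A does not.

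Of 14 genes that regulate assembly of the complex, among them kinases, cyclins and a kinase inhibitor, 3 were called higher and 8 lower in OIS. Over all genes, 24.8% were called higher and 26.1% lower. The 3 higher were CDKN1A, the p21 inhibitor of cyclin-dependent kinases (log2 fold change 1.19), CDK2 (0.56) and CCND1, the cyclin D1 gene (0.36). The 3 with the largest falls were PLK1, a mitotic kinase that works with the B-MYB and FOXM1 forms (-3.07), CCNA2, the cyclin A2 gene (-2.67), and CDK1 (-2.67).

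The genes the complex controls fell nearly as a whole. Of 28 G1/S genes known as DREAM targets, 27 were called lower and none higher in OIS, where 26.1% of all genes were called lower. All 28 had a log2 fold change below 0, with a median of -1.62. The 1 gene not called was SLBP, the histone mRNA binding protein (-0.05, adjusted p = 0.536, edgeR), named after its value was seen. The largest falls were those of TK1, thymidine kinase (-3.31), CHAF1B, a histone chaperone (-2.50), and GINS2, a part of the replicative helicase (-2.44). Of 38 G2/M genes tied to B-MYB, MuvB and FOXM1, 37 were called lower and none higher, against the same 26.1% of all genes. All 38 had a log2 fold change below 0, with a median of -2.81. They were led by KIF20A, a mitotic kinesin (-3.51), MKI67, a proliferation antigen (-3.30), and HMMR, a spindle protein (-3.19), and ECT2 was the 1 gene not called (-0.68, adjusted p = 0.0918), likewise named after its value was seen. FOXM1 and MYBL2, at -2.78 and -3.20, had folds of the size of the G2/M median.

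The promoter windows of these lists held different letters. A CHR was in 29 of 38 windows of G2/M genes (76.3%) and in 3 of 32 windows of G1/S genes (9.38%). An E2F core was in 10 of 38 (26.3%) and 20 of 32 (62.5%). Genes are counted in such lists partly because of these motifs, so the shares are descriptions of the lists.

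Knockdown of XPO7 during OIS was compared next, to ask whether the level of these genes differed from that in induced cells. Both comparisons use the same 3 induced libraries and are not independent. Few genes were called: 0.124% of all genes with shXPO7_3 and 0.589% with shXPO7_5. None of the 8 genes was called with shXPO7_3 by edgeR, 1 (FOXM1) had an unadjusted p under 0.05, as did 6.41% of all genes, and DESeq2 called 1. FOXM1 and MYBL2 were called higher with shXPO7_5, where 0.478% of all genes were called higher.

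FOXM1 stood at 18.5, 15.3 and 15.4 CPM with shXPO7_3 in libraries T, A and B, above the 11.3 to 13.2 CPM of induced cells in each case. It stood at 18.7, 17.8 and 18.3 CPM with shXPO7_5, so these 3 libraries lay close together and above every induced library. The log2 fold change was 0.43 with shXPO7_3 (interval 0.21 to 0.65, adjusted p = 0.167) and 0.59 with shXPO7_5 (interval 0.37 to 0.81, adjusted p = 0.0265). Groups that did not overlap, with the knockdown higher, made up 7.46% of all genes with shXPO7_3 and 14.2% with shXPO7_5. In the plot of the level left, FOXM1 went from 14.5% of the non-induced mean in induced cells to 19.6% with shXPO7_3 and 21.8% with shXPO7_5.

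MYBL2 stood at 5.13, 3.96 and 4.26 CPM with shXPO7_3, and library A overlapped the induced range of 3.33 to 4.08 CPM. With shXPO7_5 it stood at 6.40, 5.41 and 7.18 CPM, above every induced library. The log2 fold change was 0.26 with shXPO7_3 (interval -0.05 to 0.57, adjusted p = 0.916) and 0.77 with shXPO7_5 (interval 0.46 to 1.08, adjusted p = 0.0339). The level left was 10.8% of the non-induced mean in induced cells, 13.1% with shXPO7_3 and 18.6% with shXPO7_5. Tested directly between the shRNAs, MYBL2 differed by 0.51 (interval 0.21 to 0.81, adjusted p = 0.388) and FOXM1 by 0.16 (interval -0.06 to 0.37, adjusted p = 0.398), in a comparison that called 0.0131% of all genes. None of the 8 genes was called between the shRNAs, and MYBL2 was the 1 with an unadjusted p under 0.05, as had 11.9% of all genes.

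**Figure D3:**
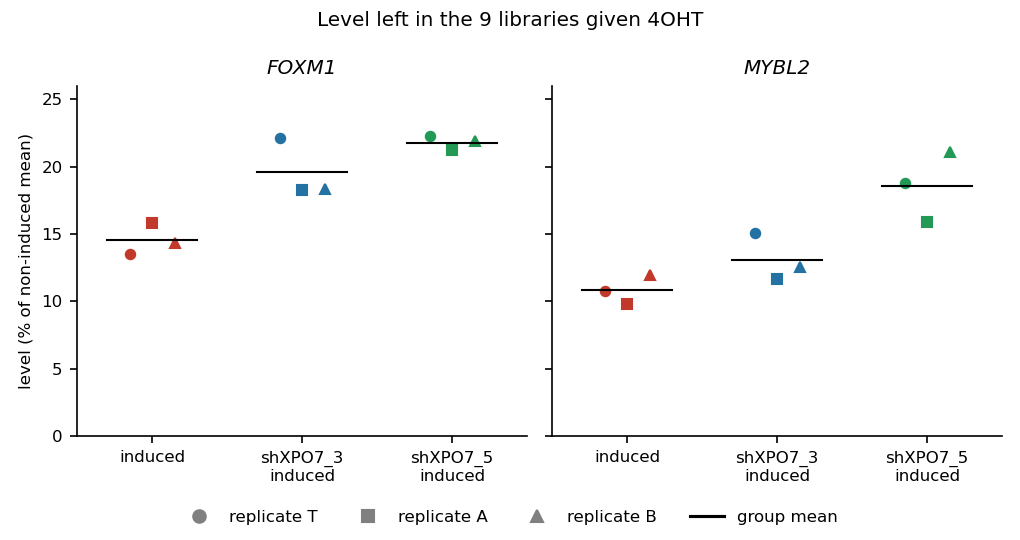
Level of FOXM1 and MYBL2 in the 9 libraries given 4OHT, as a percentage of the mean of the non-induced libraries, on a linear axis from 0. The black line is the group mean. FOXM1 means go from 14.5% through 19.6% to 21.8%, and all values lie far under 100%.

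The calls with shXPO7_5 depended on which libraries were in the fit. Without 1 library, FOXM1 was called in 7 of 12 fits and MYBL2 in 5 of 12. The FOXM1 call was lost without induced T, A or B or without shXPO7_5 induced T or B, at log2 fold changes of 0.54 to 0.65 and adjusted p of 0.0814 to 0.155 (edgeR). The MYBL2 call was lost without any of these 5, without non-induced A and without shXPO7_3 induced B, at 0.67 to 0.86 and adjusted p of 0.0549 to 0.155. With shXPO7_3, FOXM1 was called by DESeq2 (0.44, adjusted p = 0.0318) and with the GC offset (0.42, adjusted p = 0.00795). The range of its adjusted p over all 21 alternatives was 0.00795 to 0.633.

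Taking both knockdowns together against induced cells, FOXM1 was called higher (0.51, SE 0.09, adjusted p = 0.0296) and MYBL2 was not (0.52, SE 0.12, adjusted p = 0.101), in a contrast that called 0.556% of all genes. The FOXM1 call was lost without non-induced A, induced T, A or B, shXPO7_3 induced A, or shXPO7_5 induced T or B, at 0.46 to 0.57 and adjusted p of 0.0516 to 0.225 (edgeR). MYBL2 was called without shXPO7_5 induced A (0.57, adjusted p = 0.0430).

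The core genes and DYRK1A were not called with either shRNA. RBBP4 gave the narrowest intervals, -0.10 to 0.17 with shXPO7_3 and -0.17 to 0.10 with shXPO7_5 on the log2 scale. LIN52 had intervals from -0.25 to 0.12 and from -0.20 to 0.17. DYRK1A changed by -0.06 (interval -0.24 to 0.12) and -0.15 (interval -0.33 to 0.04). LIN37, at under 2.5 CPM in every library, changed by 0.13 and 0.19 with intervals that included 0.

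LIN9 and LIN54 were uneven within the knockdown groups. LIN9 stood at 2.88, 5.31 and 5.51 CPM with shXPO7_3 and 1.82, 4.89 and 2.13 CPM with shXPO7_5. LIN54 stood at 17.1, 19.0 and 20.9 CPM and at 13.7, 19.0 and 12.1 CPM. The low values were those of shXPO7_5 induced T and B and, less so, of shXPO7_3 induced T. These were the 3 libraries in which genes rich in GC were high: the rank correlation between GC content and the log2 ratio to the induced mean, over 14864 genes of 1 library, was 0.59, 0.76 and 0.55 in them and between -0.34 and 0.12 in the 3 other knockdown libraries. LIN9 and LIN54 transcripts were poor in GC, at 41.8% and 40.9%, while those of FOXM1 and MYBL2 were at 53.8% and 60.2%. With the GC offset, shXPO7_5 against induced gave -0.21 for LIN9, 0.02 for LIN54, 0.53 for FOXM1 (adjusted p = 0.00228) and 0.60 for MYBL2 (adjusted p = 0.00328, edgeR). Without shXPO7_5 induced A, LIN9 (-1.05, adjusted p = 0.0420) and LIN54 (-0.49, adjusted p = 0.0398) were called lower by edgeR. Whether base composition or a difference between the cells gave the uneven values was not tested.

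**Figure D4:**
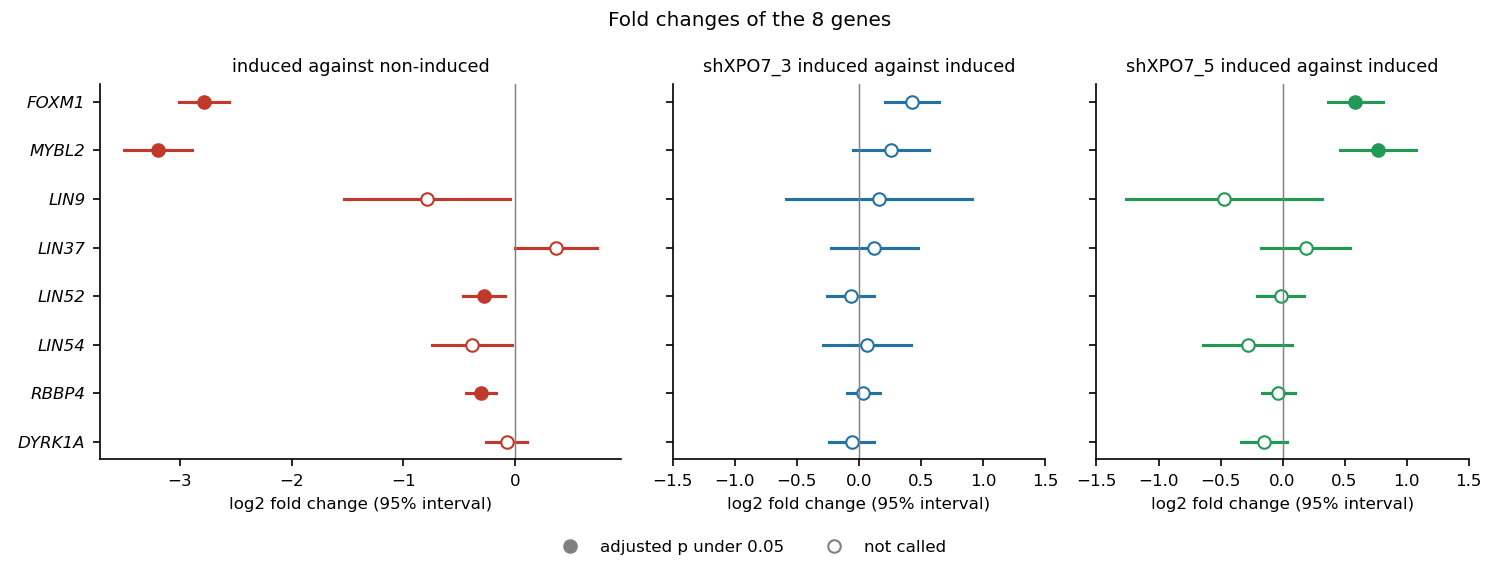
Log2 fold change of the 8 genes with its 95% interval in 3 comparisons; filled circles were called and open circles were not. In OIS, MYBL2 (-3.20) and FOXM1 (-2.78) lie far to the left of the other 6, and with shXPO7_5 the same 2 genes are the filled circles to the right of 0. The horizontal scale of the first panel differs from that of the others.

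None of the 6 DREAM partners and none of the 6 relatives was called with either shRNA by edgeR or DESeq2. At an unadjusted p under 0.05 stood 0 and 0 of them with shXPO7_3 and 2 and 1 with shXPO7_5, where 21.6% of all genes did. RBL1 changed by 0.28 with shXPO7_3 and -0.12 with shXPO7_5, and RBL2 by -0.16 and -0.35, with RBL2 at 34.4, 43.6 and 43.8 CPM and at 32.0, 43.1 and 31.7 CPM. RBL2 was thus low in the same 3 libraries as LIN9. MYBL1 was low in them too, at 6.28, 5.22 and 5.05 CPM against 9.27 to 10.96 CPM in the other knockdown libraries. DYRK3 stayed at 39.0 to 39.9 CPM with shXPO7_3 and 37.3 to 40.3 CPM with shXPO7_5, beside 41.2 to 41.9 CPM in induced cells.

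Among the 14 regulators, PLK1 was the 1 gene called with shXPO7_5, where 0.589% of all genes were called. None was called with shXPO7_3 by edgeR or DESeq2, and 1 had an unadjusted p under 0.05, as did 6.41% of all genes. PLK1 stood at 6.12, 7.90 and 7.93 CPM in induced libraries and at 10.9, 12.2 and 13.1 CPM with shXPO7_5, given from the lowest to the highest (log2 fold change 0.72, SE 0.12, adjusted p = 0.0265). With shXPO7_3 it stood at 8.83, 10.1 and 11.2 CPM (0.45, adjusted p = 0.294). CDKN1A, which encodes p21, changed by -0.09 and -0.12 and was not called (adjusted p = 0.9995 and 0.385, edgeR).

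More target genes of the complex lay above than below their level in induced cells, less so with shXPO7_5 for the G2/M genes, and few were called. With shXPO7_3, 37 of 38 G2/M genes had a log2 fold change above 0, as did 7478 of all 15284 genes. Their median was 0.25 against -0.003 over all genes. None of the 38 was called by edgeR, and 14 had an unadjusted p under 0.05, where 6.41% of all genes did. DESeq2 called 2 of them, and the share of all genes it called is not given here. With shXPO7_5, 23 of 38 were above 0, as were 7746 of all 15284 genes, and the median was 0.16 against 0.006. Of the 38, 3 were called, all higher, where 0.478% of all genes were called higher. They were PLK1, AURKB, the kinase of the chromosomal passenger complex (0.63, adjusted p = 0.0285), and UBE2C, an ubiquitin-conjugating enzyme of mitotic exit (0.60, adjusted p = 0.0174, edgeR). An unadjusted p under 0.05 by edgeR was seen for 15 of the 38 with shXPO7_5, where 21.6% of all genes had one. By library, the median log2 ratio of the G2/M genes to the induced mean was 0.12, 0.40 and 0.30 for shXPO7_3 T, A and B and 0.17, 0.31 and 0.04 for shXPO7_5 T, A and B. The lowest 3 of these 6 medians were those of the libraries in which genes rich in GC were high. Whether base composition has a part in these medians was not tested. Among the 28 G1/S genes, 23 lay above 0 with shXPO7_3 (median 0.12, 0 called by edgeR, 7 at an unadjusted p under 0.05, 1 called by DESeq2). With shXPO7_5, 20 lay above 0 (median 0.17, 10 at an unadjusted p under 0.05 by edgeR). Those called with shXPO7_5 were TK1 (0.69, adjusted p = 0.0358) and RRM2, a subunit of ribonucleotide reductase (0.39, adjusted p = 0.0451, edgeR). TK1 stood at 4.59, 4.79 and 5.06 CPM in induced libraries and at 6.55, 8.15 and 8.57 CPM with shXPO7_5, beside 45.3 to 49.1 CPM in non-induced cells. The promoters of TK1 and PLK1 each held 1 of the motifs and are shown as targets called with shXPO7_5. The other targets called, AURKB, UBE2C and RRM2, gave no match, and whether each had a window is not stated here.
TK1, chr17:78187138-78187167, minus strand, E2F core read on the other strand: gcggccaaatcTCCCGCCaggtcagcggcc
PLK1, chr16:23678848-23678877, plus strand, CHR beginning 29 bases before the start: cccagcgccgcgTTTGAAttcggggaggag
With both knockdowns together, 4 G2/M genes were called, PLK1, AURKB, UBE2C and KIF4A (0.37, adjusted p = 0.0470, edgeR), the last named after its value was seen. RRM2 was the 1 G1/S gene called, in a contrast that called 0.556% of all genes.

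The counts of target genes called depended on the libraries. For G2/M genes with shXPO7_5, the count of 3 became 0 without any induced library or without shXPO7_5 induced T or B, 6 without shXPO7_3 induced T, and 13, of which 12 were higher, without shXPO7_5 induced A. For G1/S genes the count of 2 became 7 without shXPO7_5 induced A, 1 without shXPO7_3 induced A or B, and 0 without non-induced A or C, any induced library, or shXPO7_5 induced T or B. With the GC offset, 9 G2/M genes were called with shXPO7_3 and 12 with shXPO7_5, all higher. The share of all genes called in each of these settings is not given here, so these counts have no background beside them.

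**Figure D5:**
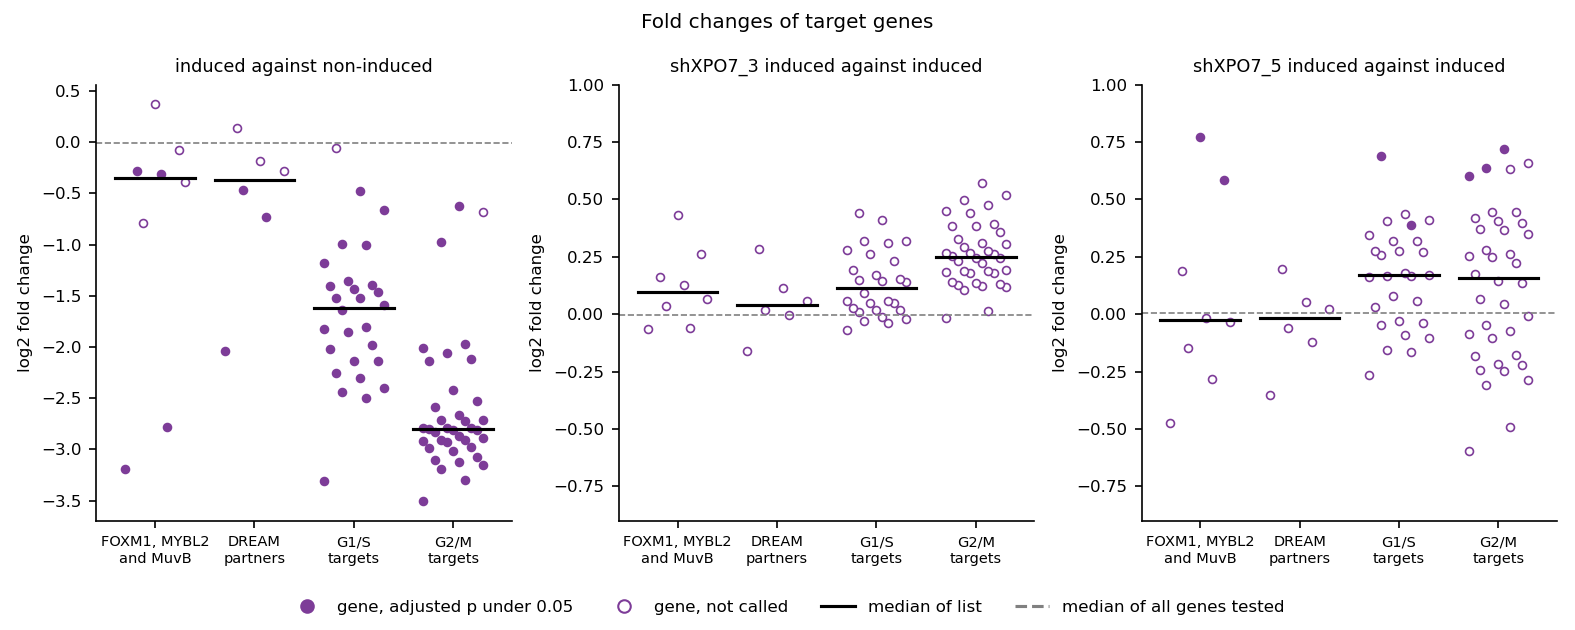
Log2 fold change of each gene in 4 lists and 3 comparisons, with the list median as a black line and the median of all genes tested as a dashed line; filled points were called. In the first panel the G2/M genes centre on -2.81, and in the second 37 of 38 lie above 0 with a median of 0.25. The vertical scale of the first panel differs from that of the others.

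The genes with levels most like those of FOXM1 over the 12 libraries, by Pearson's r on log2 CPM among 11378 candidates, were CDCA8 (0.999), CDC45 (0.998), AURKB (0.998), APOL2 (0.997) and PLK1 (0.997). For MYBL2 they were TK1 (0.998), MDK (0.997), APOBEC3B (0.996), KIFC1 (0.996) and FEN1 (0.996). The 12 values fall into a non-induced cluster and an induced one, which sets most of each r. Within the 9 libraries given 4OHT, the r was 0.93 to 0.98 for these genes, chosen with those libraries included. The likeness is a description of levels that share libraries and their base composition.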

How the data were processed

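RNA-seq counts of 12 libraries of IMR90 ER:RAS cells were grouped by the sample labels into 4 groups of 3. As deposited, values are raw counts, the whole number of reads on a gene. Tools in the submitters' processing notes are CASAVA 1.8.4, TopHat2 2.0.11 and featureCounts 1.18.0, on hg19 (GRCh37). Gene models, strandedness of counting and the rule for multi-mapping reads: not given in the sources used here. Libraries were made with a stranded mRNA kit. The table held 62069 genes and 92 ERCC entries, the latter all at 0 and not used. Totals were 28534141 to 60397769. Within groups, library pairs differed by more than counting noise alone (4.27 to 56.2 chi-square units per gene). None was therefore treated as a second sequencing of the same library, though this cannot show that the cultures were separate.

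Tests were made with edgeR 4.0.16 (limma 3.58.1, R 4.3.3). Counts were filtered by filterByExpr, scaled by TMM and fitted with a quasi-likelihood model over all 12 libraries and 4 groups without covariates. The Benjamini-Hochberg adjustment ran over all 15284 genes tested, and adjusted p under 0.05 was called. Intervals are 95%. An exact two-sided permutation test of 3 libraries against 3 cannot go below 0.1 and was not used for calls. The numbers of genes with an unadjusted p under 0.05 were 8726 for OIS, 979 with shXPO7_3, 3302 with shXPO7_5 and 1819 between the shRNAs. A self-test on simulated counts with 200 changed genes was run.

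The members, the lists of DREAM partners, relatives, regulators, targets and cell markers, and the tests were chosen with earlier results of these data known. Named were the 8 members, all partners and relatives, up to 3 genes of every other list with the largest change each way among those called, and the 5 genes most like FOXM1 and MYBL2 whose log2 CPM averaged 1 or more. Loci, lengths and GC content came from GENCODE 29 on GRCh38, matched by Ensembl identifier. Settings changed in turn were the scaling (RLE, upper-quartile), the filter (1 count in any library, or 1 CPM in at least 6), the fit (only the groups compared), the replicate letter as a block, each library left out, DESeq2 1.42.0, and an offset for GC content and length (splines with 5 degrees of freedom; values for 97.25% of genes tested), also together with the block (added after the data were seen).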

Additional observations from a re-analysis of the deposited data

How the results depend on the processing

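The number of the 8 genes called was recomputed under 21 alternatives. The share of all genes called under each alternative is not given beside it. For OIS it was 4 as reported, with RLE factors and by DESeq2, 3 with the replicate block, 5 with either other filter, 6 with upper-quartile factors and in the fit of only the groups compared, and 7 with the GC offset, with or without the replicate block. Without 1 library it was 3 to 6. For shXPO7_3 it was 0, and 1 (FOXM1) by DESeq2 and with that offset, with or without the replicate block. For shXPO7_5 it was 2, 0 in the fit of only the groups compared, and 0 to 4 without 1 library, with 4 reached without shXPO7_5 induced A. For both knockdowns together it was 1, 0 with upper-quartile factors and in the fit of only the groups compared, 2 with the replicate block, 2 with the GC offset with or without the block, 2 by DESeq2, and 0 to 2 without 1 library. Between the shRNAs it stayed at 0. The cause was not tested, except that a fit of only the groups compared, or without 1 library, uses fewer libraries. Directions of FOXM1 and MYBL2 held in every setting run, at 0.53 to 0.65 and 0.60 to 0.87 for shXPO7_5 and 0.33 to 0.49 and 0.14 to 0.34 for shXPO7_3. Whether the replicate letters pair the samples was not settled. Same-letter libraries of different groups correlated from -0.23 to 0.59 in 15 pairs (median 0.11). Libraries with different letters correlated from -0.62 to 0.51 in 39 pairs (median -0.08). With the replicate block, MYBL2 was called for both knockdowns together (0.52, adjusted p = 0.048, edgeR), LIN52 lost its OIS call (-0.20, adjusted p = 0.122), and no other member's call changed. LIN37, LIN9 and MYB, and MYBL2 in the libraries given 4OHT, stood at a few CPM or less. The part of counting depth in their spread was not tested.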
